A study of Homo sapiens with 12 samples.

Results

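A set of 10 genes of the amino acid stress response and of serine synthesis was followed through the study: ATF4, DDIT3, TRIB3, CHAC1, SESN2, ASNS, PHGDH, PSAT1, PSPH and SHMT2. They are the rows of the deposited table, which has 60564 genes, that carry one of these symbols, and no measured value enters that rule. RNA sequencing was done on CFPAC-1 and BxPC-3, named in the labels and known as established human lines of pancreatic ductal adenocarcinoma. Each line was kept in normal culture (control, 7% of CFPAC-1 and 5% of BxPC-3 cells ciliated per the series text) or starved of serum for 48 h to make the cells grow primary cilia (induced, 39% and 78% ciliated). Each of the 4 groups holds 3 libraries, and the labels name no genetic change and no other agent. Since every induced culture was both starved and ciliated, the effects of starvation and of cilia cannot be told apart. Whether the 3 libraries of a group are separate cultures is not stated, so the p-values reflect only how these libraries vary, which may be technical. Because each library is bulk RNA, fewer cells that express a gene and less RNA per cell cannot be told apart either.

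ATF4 is a transcription factor whose mRNA is translated when the initiation factor eIF2 is phosphorylated, a step taken by several kinases in response to amino acid shortage, misfolded protein in the endoplasmic reticulum, haem shortage or double-stranded RNA. Its targets include the stress genes DDIT3, TRIB3, CHAC1 and SESN2 and the biosynthetic genes ASNS, PHGDH, PSAT1, PSPH and SHMT2. PHGDH, PSAT1 and PSPH carry out, in that order, the synthesis of serine from a glycolytic intermediate, and SHMT2 turns serine into glycine and a folate-bound carbon unit in mitochondria. Much of the control of ATF4 is at translation, so its mRNA level is not a measure of its protein, which was not measured.

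ATF4 binds a composite element with C/EBP partners. Its core was searched as TGATGNAA, on both strands, in the 250 bases before each RefSeq gene start (GRCh38.p14). The table matched 8 of the 10 genes by symbol, with 13 start sites, and gave no window for PSPH and SHMT2. A match was found in 2 of the 13 windows, 1 each of ASNS and CHAC1, and in 1104 of all 35116 windows (3.14%). With the narrower TGATGCAA, which is contained in the first form, 1 of the 13 windows matched, against 0.772% of all windows. The 30 bases around each match are shown because these are the only 2 windows of the group with the element, read 5′ to 3′ along the gene's strand with the element in capitals. The starts used here are those of RefSeq. The GENCODE spans of ASNS and CHAC1 given below begin further upstream, so both elements lie inside those spans.
ASNS, chr7:97872458-97872487, minus strand, element starting 68 bases before the gene start: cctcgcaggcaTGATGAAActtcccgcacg
CHAC1, chr15:40953251-40953280, plus strand, element on the opposite strand, first base 209 bases before the gene start: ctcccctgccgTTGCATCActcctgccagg

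Only the windows of SESN2 and PSAT1 overlap no annotated exon, and they are shown whole, as a gene with a positive and a gene with a negative change in CFPAC-1. Neither holds the element in these letters. The capitals mark CCAAT on either strand (read as ATTGG where it lies on the other one), a common promoter motif that was chosen after the sequences had been read. It occurs in 6 of the 13 windows, those of 5 genes, and in 32% of all windows.
SESN2, chr1:28259268-28259517, plus strand: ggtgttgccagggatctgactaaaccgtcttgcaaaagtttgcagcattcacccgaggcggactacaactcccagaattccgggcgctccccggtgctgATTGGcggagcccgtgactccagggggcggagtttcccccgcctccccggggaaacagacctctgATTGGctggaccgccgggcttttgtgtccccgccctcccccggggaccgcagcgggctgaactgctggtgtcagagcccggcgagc
PSAT1, chr9:78296875-78297124, plus strand: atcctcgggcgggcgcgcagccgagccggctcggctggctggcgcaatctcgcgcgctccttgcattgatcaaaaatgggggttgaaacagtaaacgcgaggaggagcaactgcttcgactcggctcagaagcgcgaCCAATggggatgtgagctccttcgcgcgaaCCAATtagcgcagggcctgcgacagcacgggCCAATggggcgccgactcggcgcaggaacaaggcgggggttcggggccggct
SESN2 holds the motif 2 times, both on the opposite strand and between 151 and 86 bases before the start, and PSAT1 holds it 3 times as written, between 113 and 52 bases before the start.

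The libraries labelled CFPAC-1 control 2 and 3 stood apart. Across tested genes their mean correlation with the induced libraries of that line was 0.799 for each, and that of control 1 was 0.932. Of the 7 duct epithelial markers, CDH1 and KRT7 were near absent in every library labelled CFPAC-1 (at most 0.892 and 2.01 FPKM, against at least 38.2 and 396 FPKM in BxPC-3). KRT8 (270.3 to 316 FPKM) and KRT18 (254 to 318 FPKM) were instead higher in CFPAC-1 control than in BxPC-3 control (80.2 to 149 and 135 to 186 FPKM), and SOX9 was highest in CFPAC-1 control 2 and 3 (55.1 and 53.0 FPKM). KRT19 stood at 7.42 and 7.67 FPKM in CFPAC-1 control 2 and 3 and at 254 to 627 FPKM in the other 4 libraries of that line. All 7 duct markers reached 1 FPKM in every BxPC-3 library. Summed, they came to 654 to 1093 FPKM in CFPAC-1 control, 462 to 1050 FPKM in CFPAC-1 induced, 1517 to 1807 FPKM in BxPC-3 control and 1395 to 1719 FPKM in BxPC-3 induced. Of 10 fibroblast markers, VIM (569 to 975 FPKM) and LUM (25.5 to 108 FPKM, but 0.0532 and listed at 0 in control 2 and 3) were expressed in CFPAC-1, while DCN stayed under 1 FPKM in every library. COL1A1 (4.275 and 4.279 FPKM) and COL3A1 (1.98 and 2.06 FPKM) were instead highest in CFPAC-1 control 2 and 3. They were at most 0.140 and 0.160 FPKM in the other 4 libraries of that line. In BxPC-3, COL1A1 stood at 0.708 to 1.45 FPKM and ACTA2 at 0.721 to 1.73 FPKM. The summed fibroblast markers were 603 to 706 FPKM in CFPAC-1 control, 1002 to 1076 FPKM in CFPAC-1 induced, and 7.35 to 13.8 FPKM in BxPC-3. Of 8 immune markers, PTPRC was at most 0.00981 FPKM and MS4A1 was listed at 0 throughout. The 8 summed to 10.7 to 13.2 FPKM in control and 41.0 to 48.4 FPKM in induced CFPAC-1, mostly CD68, and to 5.23 to 13.4 FPKM in BxPC-3. The 4 endothelial markers summed to at most 0.621 FPKM. Mitochondrially encoded genes took 34.0%, 19.9% and 19.9% of the summed FPKM in CFPAC-1 control 1, 2 and 3, 11.6% to 22.8% in CFPAC-1 induced, 24.6% to 28.8% in BxPC-3 control and 18.6% to 22.3% in BxPC-3 induced. All 13 mitochondrially encoded mRNAs had a negative log2 change on induction in both lines. Their median was -0.73 in CFPAC-1 (2 passed) and -1.46 there without control 2 and 3. In BxPC-3 it was -0.43 (0 passed, 0 at an unadjusted p under 0.05). Whether these libraries carry the right labels, or the cells labelled CFPAC-1 are that line, was not tested, and every CFPAC-1 value here is that of the libraries so labelled. The part of these differences in the results was not tested. The CFPAC-1 results of the 10 genes are given with all libraries and without control 2 and 3, a fit in which the single control left borrows its spread from the other groups.

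**Figure D1:**
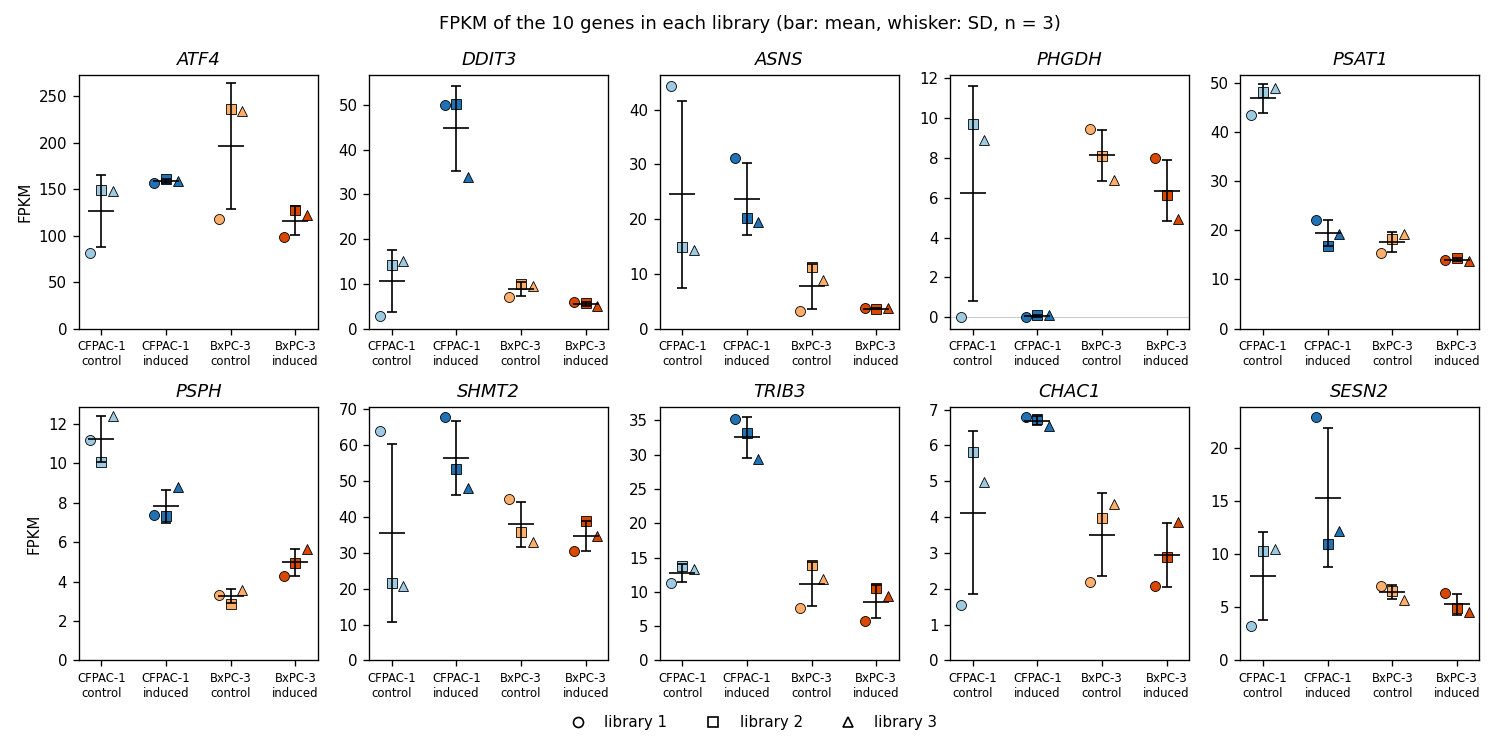
FPKM (vertical axes, linear) of each of the 10 genes in the 12 libraries by group (horizontal axes), with circles, squares and triangles for libraries 1, 2 and 3, a bar for the group mean and whiskers for the SD (n = 3). DDIT3 and TRIB3 are highest in the 3 CFPAC-1 induced libraries, PSAT1 in the 3 CFPAC-1 controls, and PHGDH lies near 0 in 4 of the 6 CFPAC-1 libraries.

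Levels are given in FPKM, the fragments of a gene scaled by its length and by the library's total, which allows a comparison between genes. ATF4 had the highest mean of the 10 genes in each group: 126 ± 38.7, 159 ± 2.10, 196 ± 67.6 and 116 ± 15.5 FPKM in CFPAC-1 control, CFPAC-1 induced, BxPC-3 control and BxPC-3 induced (SD, n = 3). In induced CFPAC-1 cells SHMT2 (56.4 ± 10.3 FPKM), DDIT3 (44.7 ± 9.41), TRIB3 (32.6 ± 2.96), ASNS (23.7 ± 6.57), PSAT1 (19.5 ± 2.69) and SESN2 (15.3 ± 6.58) followed. The libraries of each of these neighbours overlapped. PSPH (7.83 ± 0.831), CHAC1 (6.69 ± 0.127) and PHGDH (0.0680 ± 0.0460) lay below without overlap. In induced BxPC-3 cells SHMT2 (34.7 ± 4.14 FPKM) and PSAT1 (14.0 ± 0.312) came after ATF4. TRIB3 (8.57 ± 2.45), PHGDH (6.36 ± 1.53), DDIT3 (5.54 ± 0.464), SESN2 (5.29 ± 0.963) and PSPH (4.98 ± 0.684) overlapped from neighbour to neighbour, and ASNS (3.64 ± 0.0747) and CHAC1 (2.94 ± 0.900) were lowest and overlapped with each other. DDIT3 was thus the third of the 10 genes in induced CFPAC-1 and the sixth in induced BxPC-3.

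In CFPAC-1, the stress genes DDIT3 and TRIB3 rose on induction and the serine enzyme PSAT1 fell, 3 of the 10 genes, with all 12 libraries (limma on log2(FPKM + 1), Benjamini-Hochberg adjusted p under 0.05). Of all 12860 tested genes, 7.85% passed upward and 8.77% downward. Without control 2 and 3, DDIT3, CHAC1 and SESN2 passed upward and PSAT1 downward, where 1.06% and 0.669% of all genes did. DDIT3 and PSAT1 thus passed in both. The median log2 change of the 10 genes was 0.55, and 0.51 without those controls, beside -0.09 and -0.05 over all tested genes. Induced and control libraries did not overlap for ATF4, DDIT3, TRIB3, CHAC1 and SESN2, each higher when induced (14% of all genes), or for PSAT1 and PSPH, each lower (17.6% of all genes).

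ATF4 itself (ENSG00000128272, chromosome 22, 39519695 to 39522685, plus strand, GRCh38) stood at 81.5, 149 and 148 FPKM in CFPAC-1 control 1, 2 and 3 and at 157, 161 and 159 FPKM in the induced libraries. Controls 2 and 3 came close to the induced libraries and control 1 lay well below them. The log2 change of 0.38 (SE 0.30, adjusted p = 0.375) did not pass, nor did 0.96 (adjusted p = 0.203) without controls 2 and 3.

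DDIT3 encodes CHOP, a stress-induced transcription factor linked to cell death (ENSG00000175197, chromosome 12, 57516588 to 57521737, minus strand). Its level was 2.75, 14.2 and 15.1 FPKM in CFPAC-1 control and 50.0, 50.3 and 33.8 FPKM in induced cells. Every induced library exceeded every control, and control 1 was the lowest. The log2 change was 2.21 (SE 0.45, adjusted p = 0.0111), and 3.59 (SE 0.28, adjusted p = 0.00158) without controls 2 and 3. With CFPAC-1 fitted alone, so that its spread was not shared with BxPC-3, the adjusted p was 0.105. DDIT3 overlaps MARS and MBD6 on the opposite strand and MIR616 and a clone-named gene on its own. The use of strand in counting is not given in the sources used here. MARS fell by 0.77 on the log2 scale with all libraries (adjusted p = 0.0254) and had -0.48 (adjusted p = 0.360) without controls 2 and 3. MBD6 had -0.03 (adjusted p = 0.917) and 0.16 (adjusted p = 0.794). Their part in the DDIT3 values was not tested.

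TRIB3 encodes a pseudokinase that binds AKT and dampens ATF4 activity (ENSG00000101255, chromosome 20, 362835 to 397559, plus strand). Its values were 11.3, 13.7 and 13.3 FPKM in CFPAC-1 control and 35.2, 33.1 and 29.3 FPKM after induction. All 3 controls were alike here, controls 2 and 3 included. TRIB3 changed by 1.28 in log2 (SE 0.24, adjusted p = 0.00839) with all libraries and 1.44 (SE 0.36, adjusted p = 0.0736) without controls 2 and 3.

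CHAC1, which degrades glutathione (ENSG00000128965, chromosome 15, 40952962 to 40956519, plus strand), gave 1.54, 5.83 and 4.98 FPKM in CFPAC-1 control and 6.79, 6.74 and 6.55 FPKM in induced cells. SESN2, a leucine-binding inhibitor of mTORC1 signalling (ENSG00000130766, chromosome 1, 28259527 to 28282491, plus strand), gave 3.22, 10.3 and 10.5 FPKM and then 22.9, 11.0 and 12.2 FPKM. For both genes control 1 was the lowest and controls 2 and 3 were close to induced libraries 2 and 3. CHAC1 changed in log2 by 0.71 (adjusted p = 0.164) with all libraries and by 1.60 (adjusted p = 0.0453) without controls 2 and 3. For SESN2 these values were 0.93 (adjusted p = 0.102) and 1.88 (adjusted p = 0.0382). Between library 1 of each group the log2 difference was 1.62 for CHAC1 and 2.50 for SESN2, while between libraries 2 and 3 it was 0.26 and 0.14, values with no test.

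ASNS, which makes asparagine (ENSG00000070669, chromosome 7, 97852118 to 97872542, minus strand), overlaps a clone-named transcript and, on the opposite strand, a clone-named pseudogene. ASNS stood at 44.3, 14.9 and 14.4 FPKM in CFPAC-1 control and 31.2, 20.2 and 19.5 FPKM in induced cells. Control 1 lay above the induced libraries and controls 2 and 3 below them. ASNS changed by 0.11 in log2 (adjusted p = 0.888) with all libraries and -0.91 (adjusted p = 0.379) without controls 2 and 3, and -0.014 with FPKM rescaled without mitochondrially encoded genes, so its sign depended on those libraries and on the scaling. ASNS, whose element is shown above along with that of CHAC1, thus did not pass with either set of controls.

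Of the serine enzymes, PHGDH makes the first committed step (ENSG00000092621, chromosome 1, 119648411 to 119744226, plus strand). Its level was 0.0197 FPKM in CFPAC-1 control 1, 9.71 and 8.93 FPKM in controls 2 and 3, and 0.0150, 0.0911 and 0.0978 FPKM in the induced libraries. Only controls 2 and 3 expressed it among the libraries labelled CFPAC-1. The log2 change was -2.16 (SE 0.69, adjusted p = 0.0525), and 0.07 (adjusted p = 0.952) without them.

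PSAT1, the transaminase of the second step (ENSG00000135069, chromosome 9, 78297143 to 78330093, plus strand), was measured at 43.6, 48.3 and 49.0 FPKM in CFPAC-1 control and 22.2, 16.8 and 19.3 FPKM in induced cells. All 3 controls were alike and lay well above every induced library. PSAT1 fell by 1.24 on the log2 scale (SE 0.16, adjusted p = 0.00150), and fell by 1.13 (SE 0.22, adjusted p = 0.0409) without controls 2 and 3. Its 4 pseudogene copies in the table reached at most 0.173 FPKM.

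PSPH, the phosphatase of the last step (ENSG00000146733, chromosome 7, 56011051 to 56051604, minus strand), gave 11.2, 10.1 and 12.4 FPKM in CFPAC-1 control and 7.37, 7.33 and 8.78 FPKM in induced cells. The log2 change of -0.47 did not pass with all libraries (adjusted p = 0.0644) or without controls 2 and 3 (adjusted p = 0.305). PSPH has an unprocessed pseudogene, PSPHP1 (ENSG00000226278, chromosome 7, 55764797 to 55773288, plus strand), which may share its reads, so single values of PSPH are uncertain. In controls 2 and 3 PSPHP1 reached 7.51 and 5.83 FPKM, while it was listed at 0 in control 1 and in every induced CFPAC-1 library. Its log2 change of -1.95 (adjusted p = 0.0471) rested on controls 2 and 3, since all 4 other libraries are at 0.

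SHMT2 (ENSG00000182199, chromosome 12, 57229327 to 57234935, plus strand, overlapping a clone-named antisense gene) stood at 64.0, 21.5 and 20.8 FPKM in CFPAC-1 control and 67.8, 53.2 and 48.1 FPKM in induced cells. Control 1 lay among the induced libraries, apart from controls 2 and 3. SHMT2 changed by 0.84 in log2 (adjusted p = 0.118), and -0.19 (adjusted p = 0.777) without controls 2 and 3. NDUFA4L2, a gene on the opposite strand that overlaps SHMT2, rose by 2.91 (adjusted p = 0.00285), and by 1.61 without controls 2 and 3 (adjusted p = 0.0169), from 3.26, 0.0754 and 0.128 FPKM to 9.17, 14.6 and 12.8 FPKM, and its part in the SHMT2 values was not tested.

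**Figure D2:**
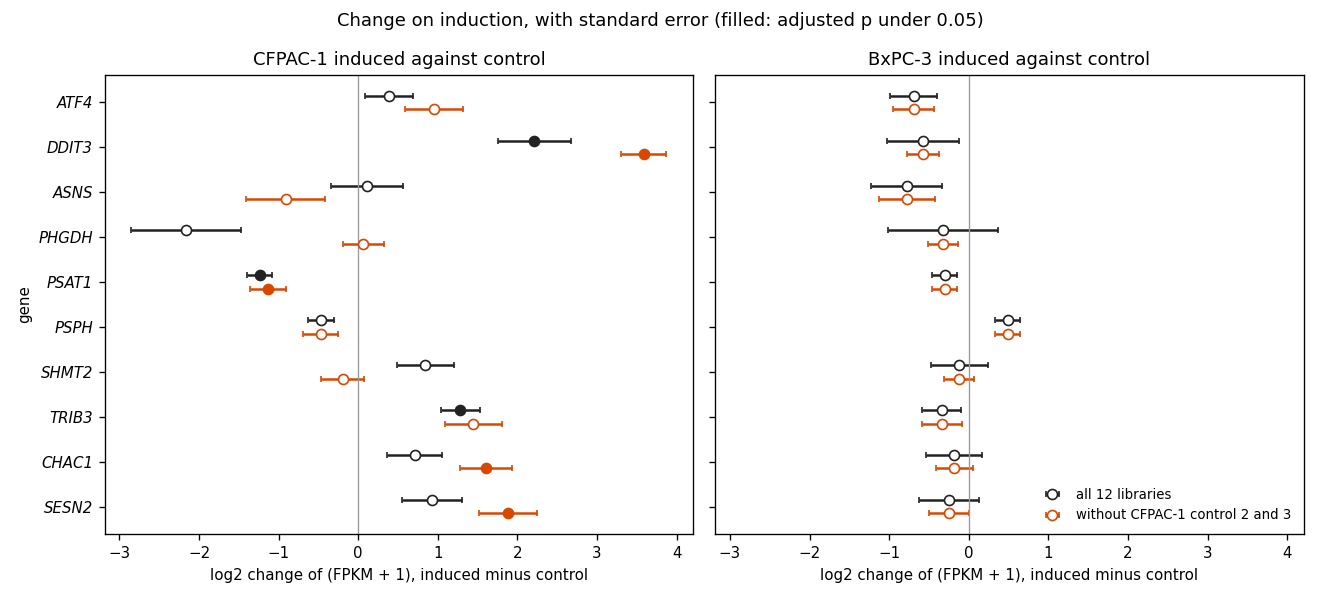
Log2 change of FPKM + 1 on induction (horizontal axis) for each of the 10 genes (vertical axis) in CFPAC-1 (left) and BxPC-3 (right), with all 12 libraries (black) and without CFPAC-1 control 2 and 3 (orange). Whiskers are standard errors and filled points have an adjusted p under 0.05, which in CFPAC-1 is so for DDIT3 and PSAT1 in both sets and in BxPC-3 for none.

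In BxPC-3, none of the 10 genes passed on induction (limma, adjusted p under 0.05). At an unadjusted p under 0.05 there were 2, ATF4 and PSPH, beside 1096 of all 12860 tested genes. Few genes passed in this line at all, 0.295% upward and 0.0389% downward. The log2 change was negative for 9 of the 10 genes and positive for PSPH, with a median of -0.31 beside 0.06 over all tested genes. Of all 12860 tested genes, 5221 had a negative change and 7605 a positive one. DDIT3 and PSAT1 were lower in every induced library than in every control (4.84% of all genes), and PSPH was higher (12.4%).

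In BxPC-3 control, ATF4 gave 118, 236 and 234 FPKM, followed by 98.5, 128 and 122 FPKM in induced cells. Controls 2 and 3 were high and control 1 lay within the range of the induced libraries. The log2 change was -0.69 (SE 0.30, adjusted p = 0.563), with -0.26 between library 1 of each group and -0.91 between libraries 2 and 3. ASNS was also high in controls 2 and 3, with 3.22, 11.2 and 8.81 FPKM in control and 3.68, 3.55 and 3.68 FPKM in induced cells, but its control 1 lay below every induced library. Its log2 change was -0.78 (adjusted p = 0.700), with 0.15 between library 1 of each group and -1.24 between libraries 2 and 3.

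Of the stress genes, DDIT3 had 6.96, 10.0 and 9.45 FPKM in control BxPC-3 libraries and 5.91, 5.69 and 5.02 FPKM in induced cells, a log2 change of -0.57 (adjusted p = 0.818). TRIB3 gave 7.62, 14.0 and 11.8 FPKM and then 5.82, 10.5 and 9.36 FPKM, with overlap and a change of -0.34 (adjusted p = 0.788). CHAC1 ranged from 2.19 to 4.36 FPKM in control and from 2.07 to 3.87 FPKM when induced. For SESN2 these ranges were 5.70 to 7.05 and 4.54 to 6.37 FPKM. Both overlapped between the groups.

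PHGDH, near absent from 4 of the 6 CFPAC-1 libraries, was expressed in all 6 of BxPC-3, with 9.43, 8.10 and 6.88 FPKM in control and 7.98, 6.16 and 4.94 FPKM in induced cells. The groups overlapped (log2 change -0.32, adjusted p = 0.974). PSAT1 stood at 15.4, 18.2 and 19.2 FPKM and then 14.0, 14.4 and 13.7 FPKM, a change of -0.30 (adjusted p = 0.657). SHMT2 overlapped, at 33.1 to 44.9 FPKM in control and 30.6 to 38.9 FPKM in induced cells.

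For PSPH the values were 3.34, 2.86 and 3.57 FPKM in BxPC-3 control and 4.30, 4.96 and 5.67 FPKM in induced cells, a log2 change of 0.49 (SE 0.16, adjusted p = 0.404). Its pseudogene PSPHP1 stood higher than PSPH itself in this line, at 11.9, 13.1 and 14.1 FPKM and then 24.1, 27.7 and 26.2 FPKM. PSPHP1 changed by 0.94 in log2 (adjusted p = 0.747, and 0.0229 in the fit without CFPAC-1 control 2 and 3, where only the shared spread differs). PSPH and PSPHP1 thus had the same sign here, and reads of the pair may not have been told apart.

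**Figure D3:**
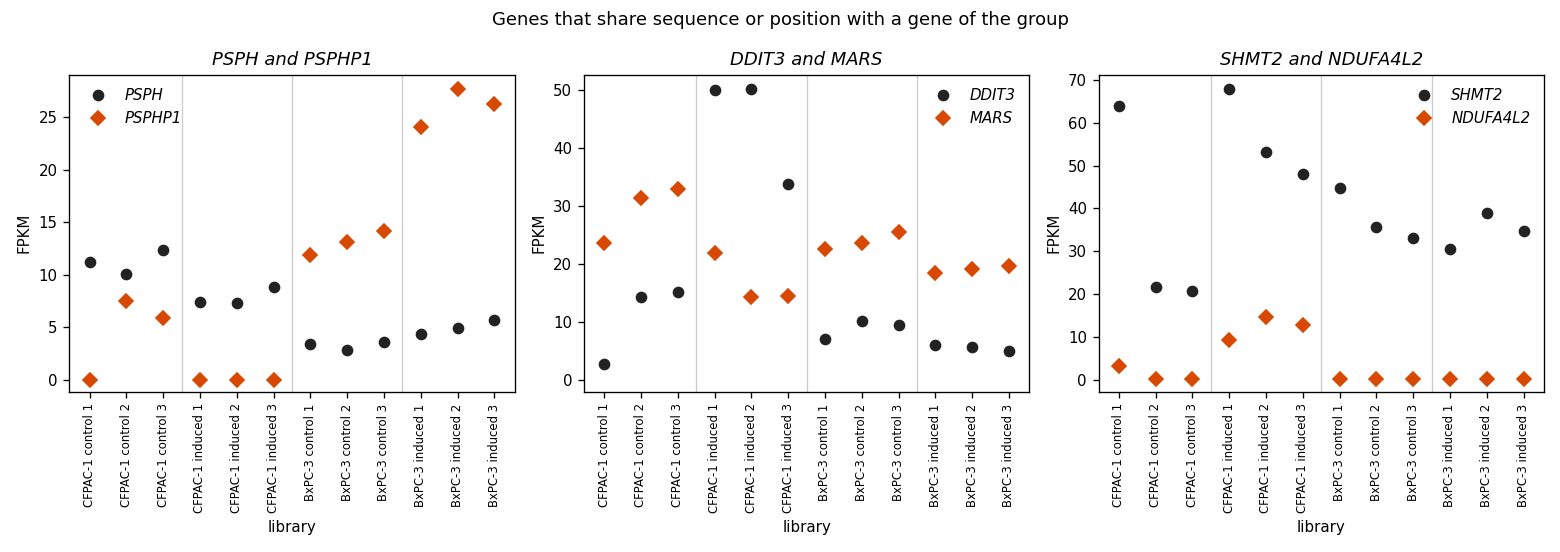
FPKM (vertical axes, linear) in each of the 12 libraries (horizontal axes) of 3 genes of the group (black) and of a pseudogene copy or an overlapping gene (orange). PSPHP1 is listed at 0 in CFPAC-1 control 1 and in the 3 induced CFPAC-1 libraries, MARS is lowest in CFPAC-1 induced 2 and 3, and NDUFA4L2 stands at 9.17 to 14.6 FPKM in the 3 induced CFPAC-1 libraries and at no more than 3.26 FPKM elsewhere.

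The change on induction was then compared between the lines, as BxPC-3 minus CFPAC-1. It was lower in BxPC-3 for DDIT3 and TRIB3, 2 of the 10 genes, and for 1.11% of all genes. No gene of the group was among the 1.34% that passed upward. The difference was -2.79 for DDIT3 (SE 0.64, adjusted p = 0.0466) and -1.62 for TRIB3 (SE 0.35, adjusted p = 0.0395). Both lie close to the threshold: over 24 alternatives the DDIT3 difference passed in 9 and that of TRIB3 in 11, with the sign kept in each. Without CFPAC-1 control 2 and 3, 1 of the 10 genes passed, DDIT3 (-4.16, adjusted p = 0.00259), where 0.179% of all genes passed upward and 0.249% downward, and TRIB3 gave -1.78 (adjusted p = 0.106). Leaving out any 1 of CFPAC-1 control 2 or 3, CFPAC-1 induced 1, 2 or 3, BxPC-3 control 2 or 3, or BxPC-3 induced 2 or 3 ended both calls, with adjusted p of 0.0696 to 0.138 for DDIT3 and 0.0556 to 0.118 for TRIB3. Without BxPC-3 induced 1 the DDIT3 call was lost as well (adjusted p = 0.0596).

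The serine enzymes PSAT1 and PSPH had positive differences of 0.93 and 0.96 (adjusted p = 0.0530 for each), from changes of -1.24 and -0.47 in CFPAC-1 and of -0.30 and 0.49 in BxPC-3. ATF4 gave -1.08 (adjusted p = 0.156), SESN2 -1.18 (adjusted p = 0.201) and CHAC1 -0.90 (adjusted p = 0.279). For PHGDH (1.84, adjusted p = 0.263), SHMT2 (-0.96, adjusted p = 0.263) and ASNS (-0.89, adjusted p = 0.400) the sign turned without CFPAC-1 control 2 and 3.

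Between the lines in the induced state, a comparison that uses no control library, PHGDH was higher in BxPC-3 and 6 genes were lower: DDIT3, ASNS, TRIB3, SESN2, CHAC1 and PSPH. Of all genes 21.4% passed upward and 14.8% downward. All 10 genes had no overlap between the 6 libraries, PHGDH higher (32.1% of all genes) and the other 9 lower (22.4%). The median log2 difference of the 10 genes was -0.83 beside 0.12 over all tested genes, a background that median centring moved to -0.01.

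PHGDH was higher in BxPC-3 by 2.77 in log2 (SE 0.69, adjusted p = 0.00929), at 4.94 to 7.98 FPKM against 0.0150 to 0.0978 FPKM. The stress gene DDIT3 was lower by a log2 difference of -2.79 (SE 0.45, adjusted p = 0.000769), at 5.02 to 5.91 FPKM against 33.8 to 50.3 FPKM. For TRIB3 the difference was -1.84 (SE 0.24, adjusted p = 0.000195). ASNS differed by -2.38 (SE 0.45, adjusted p = 0.00202), at 3.55 to 3.68 FPKM against 19.5 to 31.2 FPKM. These 4 passed in each of 23 alternatives.

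SESN2 (-1.32, adjusted p = 0.0179), CHAC1 (-0.99, adjusted p = 0.0440) and PSPH (-0.56, adjusted p = 0.0184) were less stable, passing in 19 of 23, 11 of 22 and 20 of 23 alternatives. SESN2 lost its call without CFPAC-1 induced 1 (adjusted p = 0.0646), BxPC-3 induced 2 (0.0534) or BxPC-3 induced 3 (0.0607). PSPH did so without CFPAC-1 induced 3 (0.0781), BxPC-3 induced 1 (0.0516) or BxPC-3 induced 2 (0.0523). CHAC1 did so without any 1 of the 6 induced libraries or without BxPC-3 control 2 or 3 (adjusted p from 0.0522 to 0.134). PSPHP1, the pseudogene that may share reads with PSPH, was instead higher in BxPC-3 by 4.75 in log2 (limma, adjusted p = 0.000137). PSPHP1 stood at 24.1, 27.7 and 26.2 FPKM in the BxPC-3 induced libraries and was listed at 0 in the CFPAC-1 induced ones. Its part in the PSPH difference was not tested. ATF4 (-0.46, adjusted p = 0.255), PSAT1 (-0.44, adjusted p = 0.0507) and SHMT2 (-0.68, adjusted p = 0.166) did not pass. In the fit without CFPAC-1 control 2 and 3, which changes only the shared spread here, PSAT1 and SHMT2 passed too (adjusted p = 0.0472 and 0.0156).

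Other genes of the pathway were described by list, each count of calls read against the background of all genes given above. At an unadjusted p under 0.05 the background with all libraries was 4633 of 12860 genes in CFPAC-1 and 1096 in BxPC-3. Results without CFPAC-1 control 2 and 3 rest on the single control left, so no unadjusted counts are given for that fit. The 8 genes of the eIF2 kinases and phosphatase arms had no call in either line, with 2 at an unadjusted p under 0.05 in CFPAC-1 and 0 in BxPC-3. PPP1R15A, the stress-induced subunit that guides a phosphatase to eIF2 and is itself raised by the response, stood at 19.8, 30.5 and 29.9 FPKM in CFPAC-1 control and 49.8, 65.6 and 65.2 FPKM in induced cells (log2 change 1.16, adjusted p = 0.136, and 1.55, adjusted p = 0.331, without control 2 and 3). In BxPC-3 it went from 38.5, 168 and 159 FPKM to 32.4, 84.0 and 82.3 FPKM (-0.72, adjusted p = 0.789). GCN1, an activator of the amino acid-sensing kinase, gave -0.06 in CFPAC-1 (adjusted p = 0.933), -0.94 there without control 2 and 3 (adjusted p = 0.296) and -0.27 in BxPC-3.

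Of 5 tested transcription factor partners, CEBPB, a C/EBP factor that pairs with ATF4, rose in CFPAC-1 by 0.64 (adjusted p = 0.0416). Without control 2 and 3 CEBPB no longer passed (0.82), and NUPR1 gave 2.30 against the single control left. NUPR1 stood at 0.826 FPKM in control 1, 8.48 and 7.86 FPKM in controls 2 and 3, and 4.06, 11.3 and 10.7 FPKM when induced. With all libraries its log2 change was 0.75 (adjusted p = 0.346), and induced and control libraries overlapped. Of 9 tested stress and metabolic targets out of 12, 3 rose in CFPAC-1: DDIT4, an inhibitor of mTORC1 signalling (2.46, adjusted p = 0.0287), the peptide hormone gene ADM2 (0.75, adjusted p = 0.0136) and the pro-apoptotic BBC3 (0.72, adjusted p = 0.0329). None of these calls was kept without control 2 and 3, where DDIT4 gave 1.02. ADM2 and BBC3 then gave 0.85 and 1.00. STC2, chosen after its values were seen, was too low for the test outside CFPAC-1 control 2 and 3, which held 30.9 and 29.9 FPKM against at most 0.0877 FPKM in the other 10 libraries.

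The 8 tested amino acid transporters had no call in either line, with 1 at an unadjusted p under 0.05 in CFPAC-1 and 4 in BxPC-3. SLC7A5 stood at 180.4, 179.5 and 182 FPKM in CFPAC-1 control and 78.8, 119 and 116 FPKM in induced cells (log2 change -0.81, adjusted p = 0.0805, and 0.391 without control 2 and 3). Of the 12 aminoacyl-tRNA synthetases listed as ATF4 targets, AARS rose in CFPAC-1 (0.70, adjusted p = 0.0464) and 3 fell: NARS by 0.80, MARS by 0.77 and YARS by 0.77 (adjusted p = 0.0442, 0.0254 and 0.0129). The median of the 12 was -0.58, and -0.12 without control 2 and 3. Of the 8 other cytosolic synthetases, FARSB fell by 0.89 and VARS fell by 1.61 (adjusted p = 0.0153 and 0.00159), and both also differed between the lines (1.21 and 1.64, adjusted p = 0.0480 and 0.0242). No call among these 20 synthetases was kept in CFPAC-1 without control 2 and 3. AARS, NARS and MARS then gave 0.28, -0.36 and -0.48, and YARS, FARSB and VARS gave -0.73, -1.02 and -1.29.

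Of the glycine, folate and proline branches, 15 of 20 genes were tested, and 5 fell in CFPAC-1 while none rose. SRR, which turns L-serine into D-serine, fell by 1.43 (adjusted p = 0.0129), the cytosolic hydroxymethyltransferase SHMT1 fell by 1.12 (0.00922), the folate enzymes MTHFD1L and MTHFD1 fell by 0.92 and 0.80 (0.0276 and 0.0381), and the mitochondrial serine carrier SFXN1 fell by 0.76 (0.0260). The median of the 15 was -0.35, and -0.28 without control 2 and 3, where no call was kept. SRR, MTHFD1L and MTHFD1 then gave -0.56, -0.28 and -1.26, and SHMT1 and SFXN1 gave -1.01 each.

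The 16 genes of the ATF6 and XBP1 arm, the part of the unfolded protein response that raises chaperones, had 3 calls in CFPAC-1. The co-chaperone DNAJB9 rose by 1.63 (adjusted p = 0.0184) and by 2.38 without control 2 and 3 (adjusted p = 0.0389), from 2.17, 5.84 and 6.02 FPKM to 17.6, 13.5 and 15.6 FPKM. The disulfide isomerase PDIA4 rose by 0.49 (adjusted p = 0.0478) and SDF2L1 fell by 1.13 (adjusted p = 0.0151), neither of which passed without those controls (0.25 and -0.69). HSPA5, the main chaperone of the compartment, had a log2 change of 0.80 (adjusted p = 0.0552), and 1.06 without them (adjusted p = 0.168). The 5 paralogues TRIB1, TRIB2, CHAC2, SESN1 and SESN3 had no call in either line, with 1 at an unadjusted p under 0.05 in CFPAC-1 and 0 in BxPC-3, and TRIB1 had 0.49 in CFPAC-1 (adjusted p = 0.297), and 0.44 without control 2 and 3 (adjusted p = 0.708). In BxPC-3 no gene of any of these lists passed, with all libraries or without CFPAC-1 control 2 and 3. At an unadjusted p under 0.05 the other lists held 2 partners, 2 synthetases of the target list, 1 gene of the folate branches and 3 of the ATF6 and XBP1 arm there.

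Between the lines in the induced state (limma, all 12 libraries), the 15 tested genes of the folate and related branches gave 5 that were higher in BxPC-3 and 2 that were lower. The folate dehydrogenase ALDH1L1 differed by 2.44 (adjusted p = 1.4e-05), MTHFD1L by 1.16 (0.00332), SHMT1 by 1.06 (0.00345) and MTHFD1 by 1.05 (0.00471), and the proline enzymes PYCR3 and PYCR1 differed by -1.08 and -0.72 (0.0241 and 0.0262). Among the stress targets and partners, ADM2 (-1.85, adjusted p = 8.67e-06) and NUPR1 (-2.69, adjusted p = 0.00310) were lower in BxPC-3. AARS was lower (-1.78, adjusted p = 9.12e-05), as was DARS of the other synthetases (-0.68, adjusted p = 0.0276), and NARS, TARS and YARS were higher (1.15, 1.03 and 0.49, adjusted p = 0.00357, 0.0226 and 0.0344). The haem-sensing kinase EIF2AK1 was higher (0.99, adjusted p = 0.0358). Of the transporters SLC1A5 was higher and SLC1A4 lower (0.68 and -0.87, adjusted p = 0.0474 and 0.0137). The chaperone genes DNAJB11 and PDIA4 were higher (1.24 and 0.97, adjusted p = 0.0101 and 0.000595), and DNAJB9 and XBP1 were lower (-1.10 and -0.72, adjusted p = 0.0418 and 0.0265). Of the paralogues TRIB1 was lower (-2.12, adjusted p = 0.000522), and SESN3 and SESN1 were higher (1.21 and 0.81, adjusted p = 0.0313 and 0.0255).

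**Figure D4:**
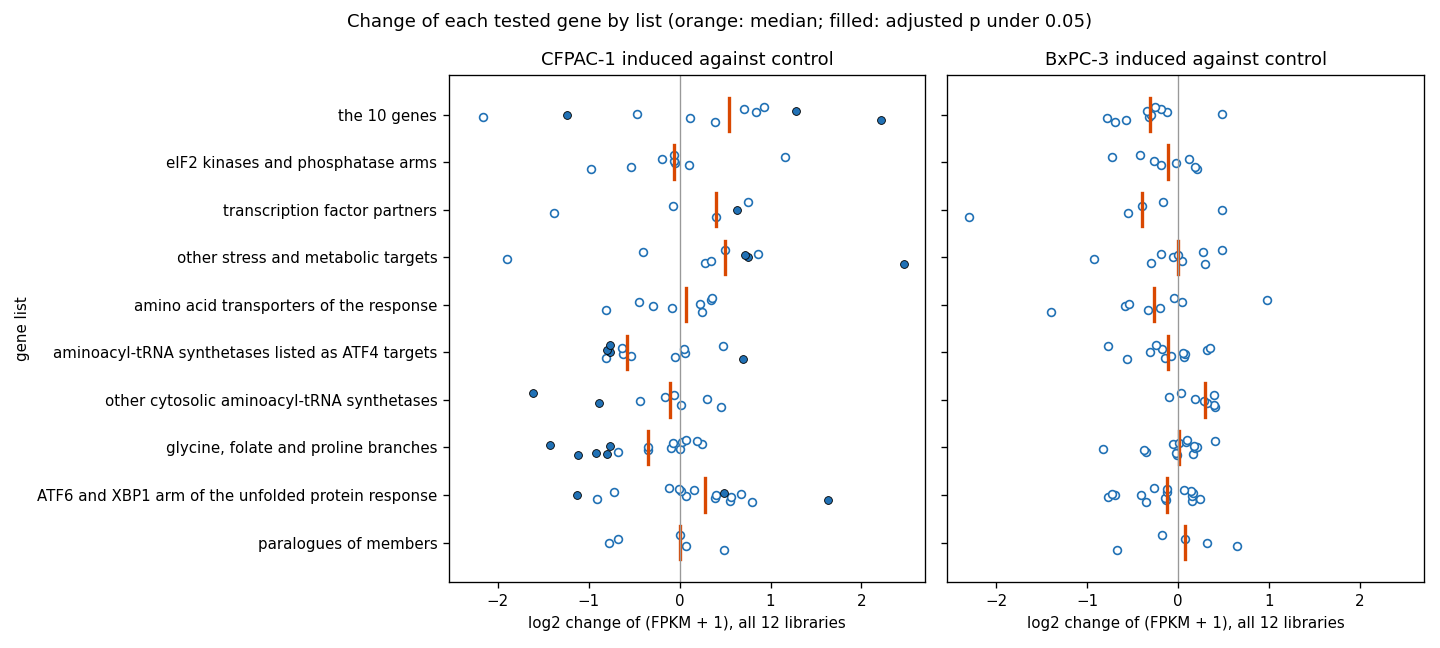
Log2 change of FPKM + 1 on induction (horizontal axis) of each tested gene by list (vertical axis) in CFPAC-1 (left) and BxPC-3 (right), with all 12 libraries. Filled points have an adjusted p under 0.05 and orange bars are list medians. Filled points occur in CFPAC-1 alone, and the median of the 10 genes is 0.55 there and -0.31 in BxPC-3.

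The genes with the pattern most like ATF4 over the 12 libraries, among 5830 tested genes with a mean of at least 5 FPKM, were PIM3, CSRNP1, ATF3, EIF1 and NINJ1, with Pearson's r of log2(FPKM + 1) of 0.956, 0.943, 0.910, 0.903 and 0.893. Like ATF4, all 5 were higher in BxPC-3 control 2 and 3 than in control 1. ATF3, a stress factor, had 24.4 and 22.8 FPKM there, 1.74 FPKM in control 1 of that line and at most 2.82 FPKM in the other 9 libraries. Those most like PHGDH were NUP210, FOXA2, ERG28, RTL8B and AHR, with r from 0.986 to 0.994. FOXA2, a transcription factor of endoderm, was listed at 0 in 4 of the 6 CFPAC-1 libraries, reached 17.5 and 18.5 FPKM in CFPAC-1 control 2 and 3, and was measured at 9.25 to 12.8 FPKM in BxPC-3. The libraries fall into separate clusters, so these r values are a description with n = 12 and no test. NUP210, FOXA2 and RTL8B were at most 0.214 FPKM in the 4 CFPAC-1 libraries that lack PHGDH, while ERG28 and AHR were expressed there, at 10.2 to 13.2 and 1.25 to 1.90 FPKM, below their levels in the other 8 libraries.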

How the data were processed

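RNA-seq of 12 libraries was read from 1 deposited table. Its unit, per the file headers, is log2(FPKM + 1), as deposited by the authors. FastQC, StringTie and GRCh38 appear, with no version, in the submitters' processing notes. The aligner, the annotation and any use of strand: not given in the sources used here. As the table holds no counts, the depth is unknown and no counting interval can be given. Every value is relative to its own library's total.

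FPKM was recovered by removing the log2 and the pseudocount of 1. A gene was tested if 3 or more libraries reached 1 FPKM (12860 genes). R 4.3.3 with limma 3.58.1 was used to fit 4 group means to the log2 values, with 8 residual degrees of freedom (6 without CFPAC-1 control 2 and 3), no replicate block, two-sided, Benjamini-Hochberg adjustment over all tested genes and a threshold of 0.05. The code was tested on simulated data. Log2 changes understate the change of low genes. Positions and overlaps come from GENCODE on GRCh38, and promoters from RefSeq.

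All 10 genes are named in each comparison. Of each other list, genes past the threshold (at most 6) are named, or otherwise up to 2 of highest mean FPKM. Genes that overlap the 10 or copy them are named for that reason. The 10 genes and the lists were chosen with earlier results of these data known, and no list was tested as a set.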

Additional observations from a re-analysis of the deposited data

Results flagged for a closer look

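The change on induction differed between the lines for DDIT3 and TRIB3 by the test of the difference itself, BxPC-3 minus CFPAC-1. It was -2.79 for DDIT3 (adjusted p = 0.0466, from 0.000317 to 0.138 over 24 alternatives) and -1.62 for TRIB3 (adjusted p = 0.0395, from 0.00776 to 0.118). The induced libraries exceeded every control in 3 of 3 CFPAC-1 libraries for both genes. In BxPC-3 the induced libraries lay below every control in 3 of 3 for DDIT3 and overlapped for TRIB3.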

How the results depend on the processing

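Alternatives covered the pseudocount, the filter, scaling, limma's trend and robust settings, each line fitted alone, replicate blocks, and libraries left out. A block over replicate numbers within each line was chosen after seeing the data. PSAT1 in CFPAC-1 passed in 25 of 25 alternatives, and DDIT3 and TRIB3 in 24 of 25 each. CHAC1 was not tested at a mean of at least 5 FPKM.

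In CFPAC-1 the number of the 10 genes past the threshold was 3, became 5 with FPKM rescaled without mitochondrially encoded genes, and ran from 3 to 6 with 1 library left out, 6 being without CFPAC-1 control 1. Then PHGDH fell by 3.27, PSPH fell by 0.47 and SHMT2 rose by 1.36 as well. Without that library 5403 of all 12860 tested genes passed, against 2138 in the main fit. With the rescaling 2531 of 12823 passed. In BxPC-3 it was 0 in every alternative run. For the difference between the lines it was 2, and became 0 with a pseudocount of 0.1, 1 with 0.5, 4 with the rescaling, 1 without CFPAC-1 control 2 and 3, and 0 to 6 with 1 library left out. For induced BxPC-3 against induced CFPAC-1 it was 7 and ran from 4 (without BxPC-3 induced 2) to 9. Without CFPAC-1 control 2 and 3 the log2 changes in CFPAC-1 turned to -0.91 for ASNS, 0.066 for PHGDH and -0.19 for SHMT2, and the differences to 0.13, -0.39 and 0.077. ASNS in CFPAC-1 also turned to -0.014 with the rescaling and ran from -0.16 to 0.62 with 1 library left out, and SHMT2 in BxPC-3 from -0.21 to 0.0068. Where no left-out library is named, the cause was not tested.

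Same-numbered control and induced libraries did not deviate together in CFPAC-1 (r = -0.0617, -0.0198 and -0.0798) and did so weakly in BxPC-3 (0.151, 0.110 and 0.0536), so the numbers were not taken as pairs. BxPC-3 control 2 and induced 3 gave 0.152. In every group library 1 had the lowest mean correlation with its own group. This was 0.814, 0.941, 0.950 and 0.951 in CFPAC-1 control, CFPAC-1 induced, BxPC-3 control and BxPC-3 induced. The lower of libraries 2 and 3 had 0.902, 0.962, 0.967 and 0.968. The source of this split was not tested, and without a block the fits treat the libraries of a group as alike. With a replicate block over all libraries, 4, 0, 2 and 7 of the 10 genes passed in the 4 comparisons. PSPH in CFPAC-1 gained a call (adjusted p = 0.0446). For the difference DDIT3 lost its call (adjusted p = 0.0526) and PSPH gained one (0.0440). With the block within each line 0 passed for the difference. Median centring moved the median of all genes for the difference between the lines from 0.16 to 0.00. Depth is unknown, so it cannot be said which low values lie near detection.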
